A study of Homo sapiens with 12 samples.

Results

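The genes described here are XBP1, HSPA5, DNAJB9, HERPUD1, SDF2L1, HYOU1, PDIA4, DNAJC3, SEL1L and CRELD2, chaperones and XBP1 targets of the unfolded protein response of the endoplasmic reticulum (ER). They were chosen by name, and each matched 1 row, giving 10 of the 58735 genes in the expression table. All 10 are protein-coding and all 10 passed the filter for testing, a mean of at least 1 FPKM (reads scaled to gene length and library) over the 12 libraries. The RNA came from MSTO-211H, a human cell line established from a mesothelioma, a tumour of the lining of the chest, kept here as floating cultures in medium with EGF and bFGF and called mesothelioma-initiating by the submitters. There were 4 groups of 3 libraries. Combo cells received 10 µM QTP and 4 Gy, Rx cells 10 µM QTP and a sham exposure, IR cells vehicle and 4 Gy, and Con cells vehicle and a sham exposure, with RNA taken 48 h after the exposure in every group. The labels name the compound only as QTP, and no label spells out Rx or Combo: they are read here by elimination as the arms with QTP, without and with radiation. All groups are 1 line in 1 culture format. Since nothing in the labels ties a library to its own culture, p-values here measure only how these libraries scatter, and that scatter may be technical.

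Proteins that enter the secretory pathway fold in the ER with the help of chaperones and disulfide isomerases, and those that fail are sent back to the cytosol for destruction, which is called ER-associated degradation. When unfolded proteins build up, 3 sensors respond: IRE1 (ERN1), PERK (EIF2AK3) and ATF6. IRE1 cuts an intron out of the XBP1 mRNA, so that an active transcription factor is made, and XBP1 and ATF6 then switch on chaperone and degradation genes through short promoter elements. PERK slows translation and favours ATF4. The values here are sums over a whole gene, so the cut and uncut forms of XBP1 mRNA cannot be told apart, and in bulk RNA fewer cells with a transcript cannot be told apart from less of it per cell.

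The best known of these promoter elements are the ER stress response element (ERSE: CCAAT, any 9 bases, then CCACG), its variant ERSE-II (ATTGG, any 1 base, then CCACG) and the core of the unfolded protein response element (UPRE, TGACGTGG). Exact matches on either strand were looked for in the 250 bases before each start listed by RefSeq (GRCh38.p14), where all 10 genes had an entry, with 12 starts among them. The stretches below show where the matches lie in 6 genes, chosen because they carry the letters through which the pathway is known to act. They read 5′ to 3′ on the strand of the gene, with matches in capitals, and the whole 250 bases are given for HSPA5, the central chaperone gene.
HSPA5 (chr9:125241344-125241593, minus strand, ERSE): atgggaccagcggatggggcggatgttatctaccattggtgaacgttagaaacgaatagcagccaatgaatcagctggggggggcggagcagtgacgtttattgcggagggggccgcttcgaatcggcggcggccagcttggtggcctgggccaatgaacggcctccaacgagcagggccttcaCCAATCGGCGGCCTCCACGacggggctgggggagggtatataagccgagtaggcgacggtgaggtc
XBP1 (chr22:28800583-28800641, minus strand, ERSE): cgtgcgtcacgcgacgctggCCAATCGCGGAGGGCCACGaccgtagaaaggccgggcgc
CRELD2 (chr22:49918549-49918577, plus strand, ERSE on the opposite strand): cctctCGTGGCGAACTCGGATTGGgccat
HERPUD1 (chr16:56932005-56932055, plus strand, ERSE-II): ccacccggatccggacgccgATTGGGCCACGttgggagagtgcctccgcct
SDF2L1 (chr22:21642094-21642144, plus strand, ERSE-II on the opposite strand): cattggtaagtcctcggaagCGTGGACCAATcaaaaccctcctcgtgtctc
HYOU1 (chr11:119057254-119057413, minus strand, UPRE core overlapping an ERSE-II on the opposite strand, then a second ERSE-II on that strand): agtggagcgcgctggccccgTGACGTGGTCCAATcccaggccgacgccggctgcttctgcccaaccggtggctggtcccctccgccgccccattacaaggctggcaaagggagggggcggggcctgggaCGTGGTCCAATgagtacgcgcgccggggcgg

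Full ERSE letters were found before 3 of the 10 genes and ERSE-II letters before another 3. Of all 27305 genes with a window, 25 (0.0916%) and 18 (0.0659%) had them. The 10 genes were chosen by name from the pathway known to act through these letters, so the counts describe them and test nothing. The UPRE core was found before HYOU1 alone among the 10, and before 213 of the 27305 genes (0.780%). It also stood before 2 of 21 chaperone, 2 of 14 degradation and 4 of 20 translocon genes of the lists described further on. In HYOU1 the UPRE core begins 188 bases before the start and shares letters with the ERSE-II that begins 185 bases before it. The windows of DNAJB9, PDIA4, DNAJC3 and SEL1L held none of these exact letters, which says nothing about other spellings or other positions. In the same lists, ERSE letters stood before 5 of the 21 chaperone and folding genes with a window (CALR, CANX, ERO1B, HSP90B1 and PDIA6) and before 0 of 14 degradation, 0 of 20 translocon, 0 of 8 sensor and 0 of 9 PERK branch genes. The starts are those of RefSeq, and for CRELD2, DNAJB9 and PDIA4 the gene in the expression table begins 467, 306 and 151 bases further upstream (from the first PDIA4 start).

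**Figure D1:**
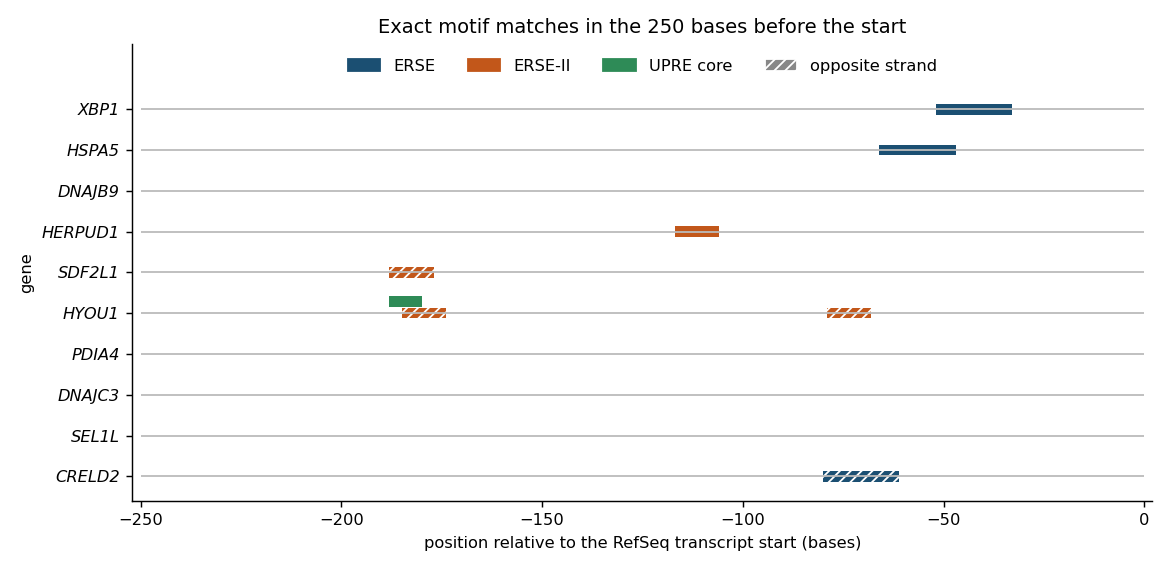
Exact matches to 3 unfolded protein response motifs in the 250 bases before the RefSeq start of each of the 10 genes, with the distance from the start in bases on the x axis. Colours give the motif and hatching the opposite strand. For XBP1, HSPA5 and CRELD2 the ERSE lies within 80 bases of the start, and HYOU1 holds 3 matches.

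The libraries held 13188257 to 18630958 reads, recovered as whole reads from the deposited FPKM, and QTP libraries (Combo and Rx) held 14925895 to 18630958 against 13188257 to 16269195 without QTP. Mitochondrial genes took 8.70 ± 0.554% of reads in Combo, 9.08 ± 0.622% in Rx, 8.50 ± 1.90% in IR and 7.79 ± 1.29% in Con (SD, n = 3 each). Libraries Combo 3 and IR 3 lay at opposite ends of the first principal component (-21.5 and 28.7, with 26.5% of the variance), and values without both are given where calls or signs moved. Of 8 mesothelial and simple epithelial markers, MSLN (40.1 FPKM), CALB2 (20.2), KRT8 (476) and KRT18 (549) were expressed, WT1 (0.955), KRT5 (0.690) and UPK3B (0.0979) lay under 1 FPKM, and PDPN had 0 reads in all 12 libraries. KRT8 averaged 372 FPKM in Combo, 482 in Rx, 522 in IR and 530 in Con, KRT18 averaged 424, 565, 621 and 585 in the same groups, and CALB2 14.5, 22.0, 19.0 and 25.3. All 3 Combo libraries were below all Con libraries for KRT8, KRT18 and CALB2, a separation found for 12.8% of all tested genes in that direction. MSLN overlapped, at 25.2 to 49.5 FPKM in Combo and 29.2 to 43.4 in Con. Of the markers under 1 FPKM, KRT5 was also wholly lower in Combo and UPK3B overlapped. WT1 overlapped too, with a higher mean in Combo than in Con. The part of such differences in the values of the 10 genes was not tested. Of 12 immune, endothelial and fibroblast markers, the fibroblast genes COL1A1 (2.49 FPKM), LUM (4.98) and PDGFRB (1.55) passed the filter, and the other 9 averaged at most 0.110 FPKM.

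Levels of the 10 genes spanned a wide range. HSPA5, which encodes the ER chaperone BiP, averaged 189 FPKM over the 12 libraries, above 98.9% of tested genes, from 9257 to 14822 reads per library. The disulfide isomerase gene PDIA4 averaged 67.3 FPKM. HERPUD1 (20.4 FPKM), XBP1 (16.2), SDF2L1 (14.6), HYOU1 (14.5) and SEL1L (14.4) followed, and DNAJC3 (6.66), DNAJB9 (6.51) and CRELD2 (6.18) were lowest. The library ranges of HSPA5 and PDIA4 overlapped with those of no other member. The 5 genes from HERPUD1 to SEL1L overlapped with their neighbours in this order, as did the 3 lowest, while the lowest SEL1L value (11.0 FPKM) was above the highest DNAJB9 value (8.36 FPKM). Across libraries no member varied more than 1.69-fold (DNAJB9), and PDIA4 (1.19-fold) and HSPA5 (1.21-fold) varied least, as the ratio of the highest to the lowest FPKM. The smallest read number behind any member was 186, for DNAJB9 in a Con library.

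**Figure D2:**
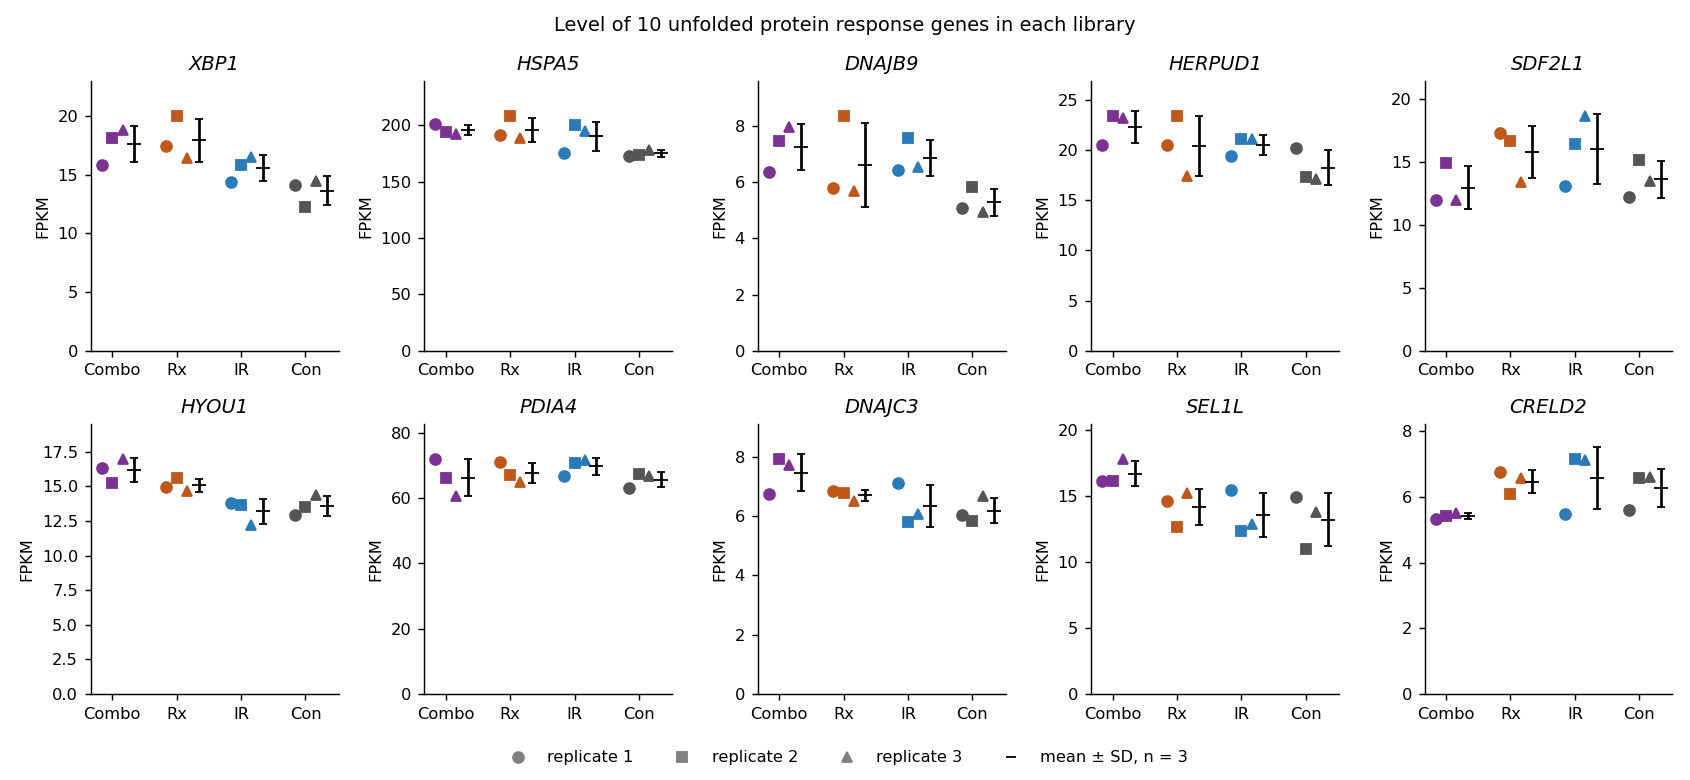
FPKM (y axis, from 0) of each of the 10 genes in each library, by group on the x axis, with marker shape for the replicate number and the mean ± SD (n = 3) beside each group. XBP1 and HSPA5 are higher in all Combo and Rx libraries than in any Con library, whereas PDIA4 lies between 60.6 and 71.8 FPKM throughout.

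XBP1, the transcription factor gene of the IRE1 branch (chromosome 22, 28794555 to 28800597, hg38), stood at 15.8, 18.1 and 18.8 FPKM in Combo, 17.5, 20.0 and 16.4 in Rx, 14.3, 15.8 and 16.5 in IR, and 14.1, 12.2 and 14.5 in Con. All Combo and all Rx libraries were above all Con libraries, and IR overlapped with Con. The log2 change was 0.35 in Combo against Con (SE 0.10, 95% interval 0.14 to 0.56), 0.37 in Rx against Con (SE 0.10, 0.16 to 0.58) and 0.18 in IR against Con (SE 0.10, -0.03 to 0.39). Log2 changes throughout are differences of log2(FPKM + 1), so that of a low gene is understated. None passed limma's test over all genes (adjusted p = 0.182, 0.9998 and 0.743). A pseudogene copy, XBP1P1, averaged 0.483 FPKM with at most 13 reads in a library.

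HSPA5, whose product BiP binds unfolded proteins and holds the sensors inactive (chromosome 9, 125234853 to 125241330), had 201, 194 and 192 FPKM in Combo, 192, 208 and 188 in Rx, 176, 200 and 195 in IR, and 173, 174 and 179 in Con. Every Combo and Rx library was above every Con library, by a small margin, and IR 1 lay among the Con libraries. The log2 change was 0.16 (SE 0.07) in Combo and 0.16 (SE 0.07) in Rx, each against Con, and 0.12 (SE 0.07) in IR, which correspond to folds of 1.12, 1.12 and 1.08. None passed (limma adjusted p = 0.376, 0.9998 and 0.758). The upper ends of the 95% intervals were log2 0.32, 0.32 and 0.28, so larger differences than these lay outside them.

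The J-domain co-chaperones bring clients to BiP. DNAJB9 (ERdj4), a well-known XBP1 target, had 6.37, 7.47 and 7.96 FPKM in Combo, 5.82, 8.36 and 5.69 in Rx, 6.43, 7.60 and 6.53 in IR, and 5.10, 5.84 and 4.94 in Con. The Combo and IR libraries were all above the Con libraries, whereas the Rx group was split, with 1 high library and both others within the Con range. The log2 change was 0.39 (SE 0.13) in Combo, 0.26 (SE 0.13) in Rx and 0.32 (SE 0.13) in IR, each against Con (limma adjusted p = 0.254, 0.9998 and 0.717). Reads of DNAJB9 may include some from THAP5 and PNPLA8, which overlap it on the opposite strand at 6.13 and 5.74 FPKM, since the use of strand in counting is not given in the sources used here. DNAJC3 (p58IPK), also known as an inhibitor of PERK, had 6.74, 7.90 and 7.71 FPKM in Combo, 6.83, 6.76 and 6.49 in Rx, 7.12, 5.79 and 6.07 in IR, and 6.04, 5.84 and 6.66 in Con. Combo was above Con in every library and the other groups overlapped with Con. Its log2 change in Combo against Con was 0.23 (SE 0.08, limma adjusted p = 0.285).

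HYOU1 (GRP170), a large chaperone that exchanges nucleotide on BiP, had 16.3, 15.3 and 16.9 FPKM in Combo, 15.0, 15.6 and 14.7 in Rx, 13.8, 13.7 and 12.2 in IR, and 12.9, 13.5 and 14.4 in Con. The groups with QTP were all above the groups without it, with no overlap among the 12 libraries, and the IR libraries overlapped with the Con libraries. This separation was found for 0.621% of all tested genes in that direction. Averaged over both radiation arms, HYOU1 was higher with QTP by log2 0.21 (SE 0.05, 95% interval 0.10 to 0.31), the smallest p of the 10 in that comparison (0.00116), but it did not pass over all genes (limma adjusted p = 0.156). The radiation difference of HYOU1, averaged over both QTP arms, was 0.03 (95% interval -0.08 to 0.13).

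The remaining lumenal genes showed no such order. SDF2L1, a partner of the co-chaperone ERdj3, had 11.95, 14.9 and 11.99 FPKM in Combo, 17.3, 16.7 and 13.4 in Rx, 13.1, 16.4 and 18.6 in IR, and 12.2, 15.2 and 13.4 in Con. Either treatment alone gave a higher mean than Con and both together a lower one, with all groups overlapping Con. PDIA4 (ERp72), which forms and rearranges disulfide bonds, had 71.8, 66.2 and 60.6 FPKM in Combo, 71.0, 67.0 and 65.0 in Rx, 66.8, 70.8 and 71.7 in IR, and 63.1, 67.3 and 66.6 in Con. Its groups overlapped throughout, and its log2 change in Combo against Con was 0.01 (95% interval -0.15 to 0.17). CRELD2, an ER protein of the EGF-like family with disulfide isomerase activity, had 5.33, 5.41 and 5.498 FPKM in Combo, 6.74, 6.08 and 6.57 in Rx, 5.49, 7.14 and 7.11 in IR, and 5.60, 6.57 and 6.61 in Con. The 3 Combo values lay below all Rx and all Con values, and 1 IR library reached them. CRELD2 overlaps ALG12, on the opposite strand, at 2.23 FPKM, so reads of CRELD2 may include some from ALG12. How many was not measured.

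Both genes of ER-associated degradation were highest on average in Combo. HERPUD1, a membrane protein that assembles the HRD1 ligase complex, had 20.5, 23.3 and 23.1 FPKM in Combo, 20.5, 23.4 and 17.4 in Rx, 19.4, 21.0 and 21.1 in IR, and 20.2, 17.3 and 17.2 in Con. Combo was above Con in every library, while Rx and IR overlapped with Con, whose first library was the highest of its 3. SEL1L, the adaptor that holds HRD1 (SYVN1) in its complex, had 16.2, 16.1 and 17.8 FPKM in Combo, 14.6, 12.6 and 15.3 in Rx, 15.5, 12.3 and 12.9 in IR, and 14.9, 11.0 and 13.8 in Con. All 3 Combo libraries were above all 9 others. Of all tested genes, 10.0% were wholly above Con in Combo, 8.53% above IR and 8.26% above Rx. The share above all 3 groups at once was not counted. The log2 change in Combo against Con was 0.28 (SE 0.10) for HERPUD1 and 0.32 (SE 0.12) for SEL1L (limma adjusted p = 0.306 and 0.288).

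With both treatments, 8 of the 10 genes had a higher mean in Combo than in Con, against 48.5% of all 13038 tested genes, and the median log2 change was 0.23, against -0.01 over all tested genes. None of the 10 passed an adjusted p of 0.05 (limma), and 0% of all tested genes did. At an unadjusted p under 0.05, 7 members were higher (XBP1, HSPA5, DNAJB9, HERPUD1, HYOU1, DNAJC3 and SEL1L) and 0 lower, against 5.49% of all tested genes in the higher direction, and limma voom on the recovered reads gave 6. The same 7 had no overlap between Combo and Con, against 10.0% of all tested genes in that direction, and CRELD2 lay wholly below, as did 12.8% of all. Of these 7, XBP1, HSPA5, HERPUD1 and HYOU1 are among the genes shown above with promoter motifs, as are SDF2L1 and CRELD2, which had the only means below Con. Without Combo 3 and IR 3 the median was 0.21, with 2 members at an unadjusted p under 0.05.

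With QTP alone, 10 of 10 genes had a higher mean in Rx than in Con, against 51.7% of all tested genes, with a median log2 change of 0.15, against 0.00386 over all tested genes. Rescaled to TPM, that median was 0.062, against -0.082 over the same 13038 tested genes, with PDIA4 and CRELD2 below 0. None passed the adjusted p (limma), as for 0% of all tested genes, and 2 did at an unadjusted p under 0.05 (XBP1 and HSPA5, against 2.36% of all in the higher direction), or 1 with voom. XBP1, HSPA5 and HYOU1 had no overlap with Con, against 4.60% of all in that direction. Rx 2 was the highest of all 12 libraries for XBP1, HSPA5, DNAJB9 and HERPUD1. Without Rx 2, the log2 change in Rx against Con was 0.30 for XBP1, 0.12 for HSPA5, 0.10 for DNAJB9 and 0.05 for HERPUD1, and the median of the 10 was 0.11. Combo and Rx are the more deeply sequenced groups, and the part of depth in these differences was not tested.

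With radiation alone, 9 of 10 genes were higher on average in IR, against 52.6% of all tested genes, with a median log2 change of 0.10 over Con, which became -0.0078 when values were rescaled to TPM. The median over all tested genes was 0.0081, and -0.095 in TPM, where PDIA4, DNAJC3, SEL1L and CRELD2 also turned negative. DNAJB9 was the only member at an unadjusted p under 0.05 (0.0306) and the only one with no overlap, against 3.69% and 5.56% of all tested genes in that direction, and voom gave 1 as well. None passed the adjusted p (limma), and 0% of all tested genes did. On the FPKM scale HYOU1 had the only negative value, -0.04 (SE 0.07). The 3 comparisons against Con share the Con libraries, in which 5 of the 10 genes had their lowest value of all 12 libraries, so they are not independent of one another.

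**Figure D3:**
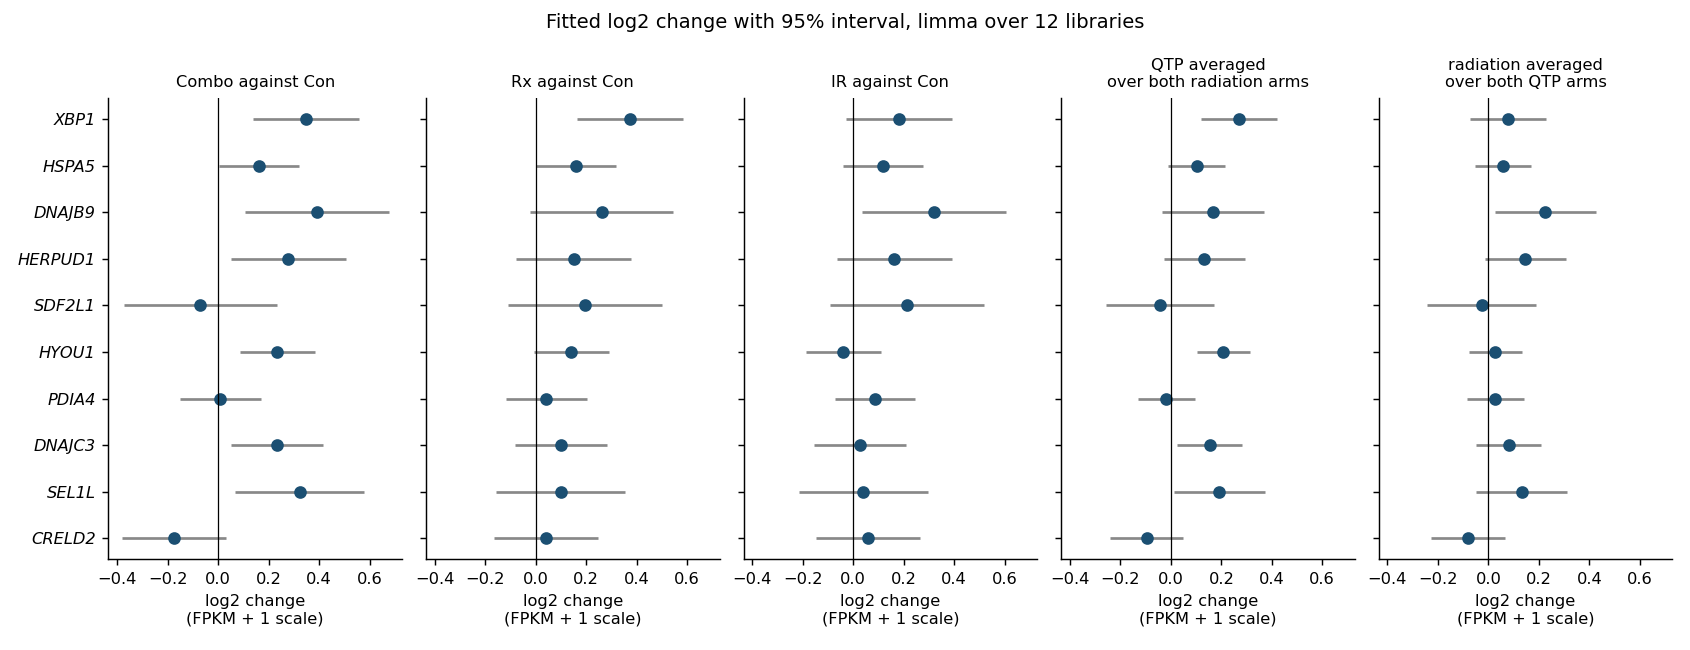
Fitted log2 change (x axis, log2(FPKM + 1) scale) of each of the 10 genes with its 95% interval, in 5 comparisons. In Combo against Con, 7 intervals lie above 0, and with radiation averaged over both QTP arms all but that of DNAJB9 include 0.

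Set against radiation alone, adding QTP gave a higher mean for 7 of the 10 genes (47.4% of all tested genes), with a median log2 change of 0.09, against -0.01 over all. HYOU1 differed by 0.27 (SE 0.07), SEL1L by 0.28 (SE 0.12) and DNAJC3 by 0.21 (SE 0.08), and CRELD2 by -0.23 (SE 0.09). These 4 were at an unadjusted p under 0.05, against 5.91% of all tested genes in the higher direction and 11.6% in the lower, and voom gave 4. HYOU1 and SEL1L were wholly above IR in Combo, against 8.53% of all in that direction. None passed over all genes (limma adjusted p = 0.165, 0.249, 0.243 and 0.244), where 0% of all tested genes passed. The calls depended on IR 1: without that library limma called 956 of the 13038 tested genes. Among them were 2 of the 10, HYOU1 (0.30, limma adjusted p = 0.0420) and CRELD2 (-0.34, limma adjusted p = 0.0348). The split of the 956 by direction was not counted. Without Combo 3 and IR 3, 1 member was higher and 0 lower at an unadjusted p under 0.05.

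Set against QTP alone, adding radiation gave a higher mean for 5 of the 10 genes (46.0% of all tested genes), with a median log2 change of 0.05, against -0.01 over all. Without Rx 3 the median of the 10 was -0.0022. HSPA5 and XBP1 were close to level, at -0.000311 (95% interval -0.16 to 0.16) and -0.03 (-0.24 to 0.18). In TPM they were at 0.087 and 0.060, against a median of 0.078 over the 17393 genes that average at least 1 TPM. CRELD2, at -0.22 (SE 0.09), was the only member at an unadjusted p under 0.05 (6.30% of all tested genes in the lower direction), and voom gave 1, but without Combo 3 and IR 3 there were 0. SEL1L was wholly above Rx in Combo (0.22, SE 0.12) and CRELD2 wholly below, against 8.26% and 12.7% of all tested genes in those directions. None of the 10, and 0% of all tested genes, passed the adjusted p (limma).

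The interaction asks whether QTP and radiation together differ from the sum of their separate log2 changes. It was negative for 7 of the 10 genes, with a median of -0.12, against -0.03 over all tested genes, but in TPM the medians were 0.078 for the members and 0.17 over the 17393 genes that average at least 1 TPM, so the sign rests on the scaling. SDF2L1 had the largest value, -0.48 (SE 0.20, 95% interval -0.91 to -0.05), the only member at an unadjusted p under 0.05, against 5.31% of all tested genes in the lower direction, with 1 by voom and 0 without Combo 3 and IR 3. None of the 10, and 0% of all tested genes, passed the adjusted p (limma; SDF2L1 and CRELD2 at 0.609 each). For HSPA5 the interaction was -0.12 (95% interval -0.34 to 0.11) and for XBP1 -0.21 (-0.50 to 0.09). On the FPKM scale these intervals include both no interaction and a negative one as large as the single-treatment changes.

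Averaged over both radiation arms, QTP gave a median log2 change of 0.14 over the 10 genes, against -0.00482 over all tested genes, and 7 of 10 means were higher, against 48.1% of all. Without Rx 2 this median was 0.086. XBP1 (0.27, SE 0.07), HYOU1, DNAJC3 (0.15, SE 0.06) and SEL1L (0.19, SE 0.08) were at an unadjusted p under 0.05, against 5.21% of all tested genes in the higher direction, and voom also gave 4, against 2 without Combo 3 and IR 3. None of the 10 was among the 12 genes (0.0920% of all tested) that passed limma's adjusted p, and XBP1 was at 0.199. Averaged over both QTP arms, radiation gave a median of 0.07 over the 10, against -0.00374 over all, with 8 of 10 means higher, against 48.5% of all. DNAJB9 alone was at an unadjusted p under 0.05 there (0.23, SE 0.09), against 3.34% of all in the higher direction, with 1 by voom and 0 without Combo 3 and IR 3. None of the 10, and 0% of all tested genes, passed the adjusted p (limma).

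The 10 genes did not vary as 1 block over the 12 libraries. XBP1, HSPA5, DNAJB9 and HERPUD1 were all highest in Rx 2, and each had its lowest value in a Con library. HYOU1, DNAJC3 and SEL1L were highest in Combo libraries. SDF2L1 and CRELD2 were highest in IR libraries and lowest in Combo 1. As a description over 12 libraries that share groups, the Pearson correlation of log2(FPKM + 1) was highest for DNAJB9 with HERPUD1 (0.81) and XBP1 with HSPA5 (0.80), and lowest for SEL1L with CRELD2 (-0.71). The median of the 45 pairs was 0.32, and 30 pairs were above 0. XBP1 and HSPA5 followed the mean z-score of the other 9 genes most closely (0.87 and 0.85), while PDIA4 (0.04), SEL1L (0.08) and CRELD2 (-0.24) did not follow it. No Con library was among the 3 highest for any of the 10 genes. Con 1, Con 2 and Con 3 were among the 3 lowest for 7, 6 and 2 of them, against 3 each for Rx 3 and IR 1.

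**Figure D4:**
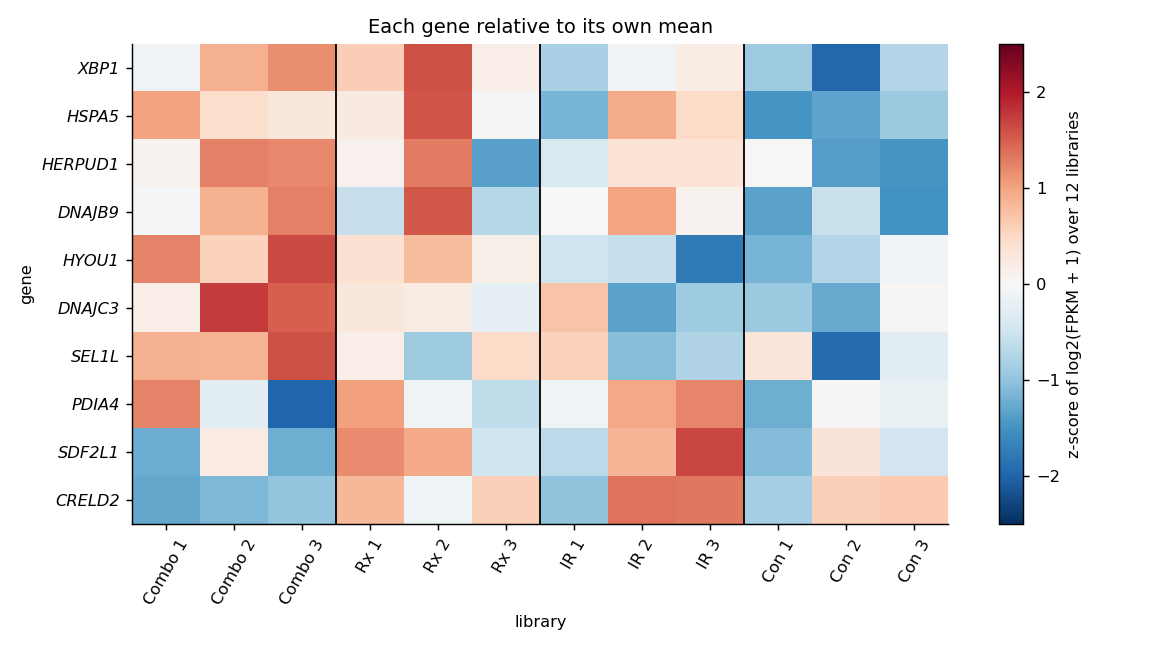
Each gene's log2(FPKM + 1) in each library (columns, grouped by treatment) as a z-score over the 12 libraries, red above and blue below the gene's own mean. XBP1, HSPA5, HERPUD1 and DNAJB9 peak in Rx 2, whereas CRELD2 is low in all 3 Combo libraries.

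Other genes of the pathway were taken in 5 lists by function. No gene of these lists passed limma's adjusted p in any of the 8 comparisons. Against Con, 5.49% of all 13038 tested genes in Combo, 2.36% in Rx and 3.69% in IR were higher at an unadjusted p under 0.05, and the medians of all tested genes were -0.0057, 0.00386 and 0.0081, or -0.00995, -0.082 and -0.095 in TPM. The other chaperones and folding enzymes (23 genes) had a median log2 change of 0.10 in Combo, 0.08 in Rx and 0.15 in IR, each against Con, and 0.099, -0.016 and 0.047 in TPM. Of these 23, 3 were higher at an unadjusted p under 0.05 in Combo, 1 in Rx and 6 in IR, and 0 were lower. HSP90B1 (GRP94), the ER member of the HSP90 family, averaged 159 ± 11.6 FPKM in Combo, 151 ± 10.2 in Rx, 175 ± 10.9 in IR and 147 ± 14.2 in Con (SD, n = 3 each). Unlike those of XBP1, all 3 IR libraries were above all Con libraries for HSP90B1, at log2 0.26 (SE 0.09) in IR against Con. Such a separation was found for 5.56% of all tested genes in that direction. The lectin chaperone CALR (0.25, SE 0.11) and its partner PDIA3 (0.25, SE 0.09) had similar log2 changes in IR. CALR overlapped, at 169.7 to 199.5 FPKM in IR and 145.7 to 179.1 in Con, and PDIA3 did not. In the same comparison CANX had 0.05, the isomerases PDIA6 and P4HB 0.14 and 0.15, DNAJB11 (ERdj3) 0.04 and MANF, a secreted ER stress protein, 0.13. ERO1A, the oxidase that recharges disulfide isomerases, averaged 29.9 ± 4.00 FPKM in Combo, 22.9 ± 5.32 in Rx, 25.4 ± 7.13 in IR and 20.8 ± 12.4 in Con (SD, n = 3 each). Its Con values spanned 11.5 to 34.8 FPKM. A list of 15 hypoxia and glycolysis genes spread in the same libraries (mean z-score -2.08 in Con 3 and 1.02 in Con 1), and its part in the ERO1A values was not tested.

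Of the 17 ER-associated degradation genes 16 were tested, DERL3 having at most 5 reads in a library. Their median log2 change was 0.080 in Combo, 0.086 in Rx and 0.082 in IR, each against Con, and 0.078, 0.00035 and -0.015 in TPM, with 2, 1 and 1 genes higher at an unadjusted p under 0.05 and 0 lower. EDEM1, which trims mannose from misfolded glycoproteins, was at 0.34 (SE 0.10) in Combo against Con with no overlap. That separation was found for 10.0% of all tested genes in that direction. The ligase gene SYVN1 was at 0.14 and the channel gene DERL1 at 0.02 in Combo against Con. The 25 translocon and secretory genes had medians of 0.011 in Combo, 0.047 in Rx and 0.10 in IR (0.0080, -0.039 and -0.00038 in TPM), with 0 genes at an unadjusted p under 0.05 in Combo or Rx and 2 higher in IR. SEC61A1, the channel subunit of the translocon, was at 0.08 in Combo, its small partner SEC61B at -0.15 and SSR1 at 0.04. In Combo against IR, 5 of these 25 were lower at an unadjusted p under 0.05 and 0 higher, against 11.6% and 5.91% of all tested genes in those directions.

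The 8 stress sensor genes had medians of 0.025 in Combo, -0.032 in Rx and 0.022 in IR, each against Con (0.025, -0.12 and -0.082 in TPM). ERN1, the sensor that cuts XBP1 mRNA, averaged 3.43 ± 0.551 FPKM in Combo, 2.51 ± 0.307 in Rx, 2.41 ± 0.427 in IR and 2.23 ± 0.410 in Con (SD, n = 3 each). Its log2 change in Combo was 0.45 (SE 0.13, limma adjusted p = 0.194) with no overlap, as for 10.0% of all tested genes in that direction. ATF6 (0.11) and EIF2AK3 (0.05) had smaller values. Of the 9 PERK branch genes 8 were tested, with medians of 0.32 in Combo, 0.21 in Rx and 0.061 in IR, each against Con (0.39, 0.12 and -0.049 in TPM), and 6, 3 and 1 higher at an unadjusted p under 0.05. DDIT3 (CHOP) spanned 14.5 to 19.3 FPKM in Combo, 13.3 to 16.1 in Rx, 11.5 to 16.3 in IR and 8.87 to 12.6 in Con (n = 3 each), with log2 0.58 (SE 0.15, limma adjusted p = 0.155) in Combo. TRIB3, a pseudokinase gene induced by ATF4 and CHOP, was at 0.53 in Combo, 0.45 in Rx and 0.0025 in IR, PPP1R15A, which restores translation, at 0.27, 0.22 and 0.20, and ATF4 at 0.11, 0.19 and 0.06. Whether any of these lists differed from the 10 genes was not tested.

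**Figure D5:**
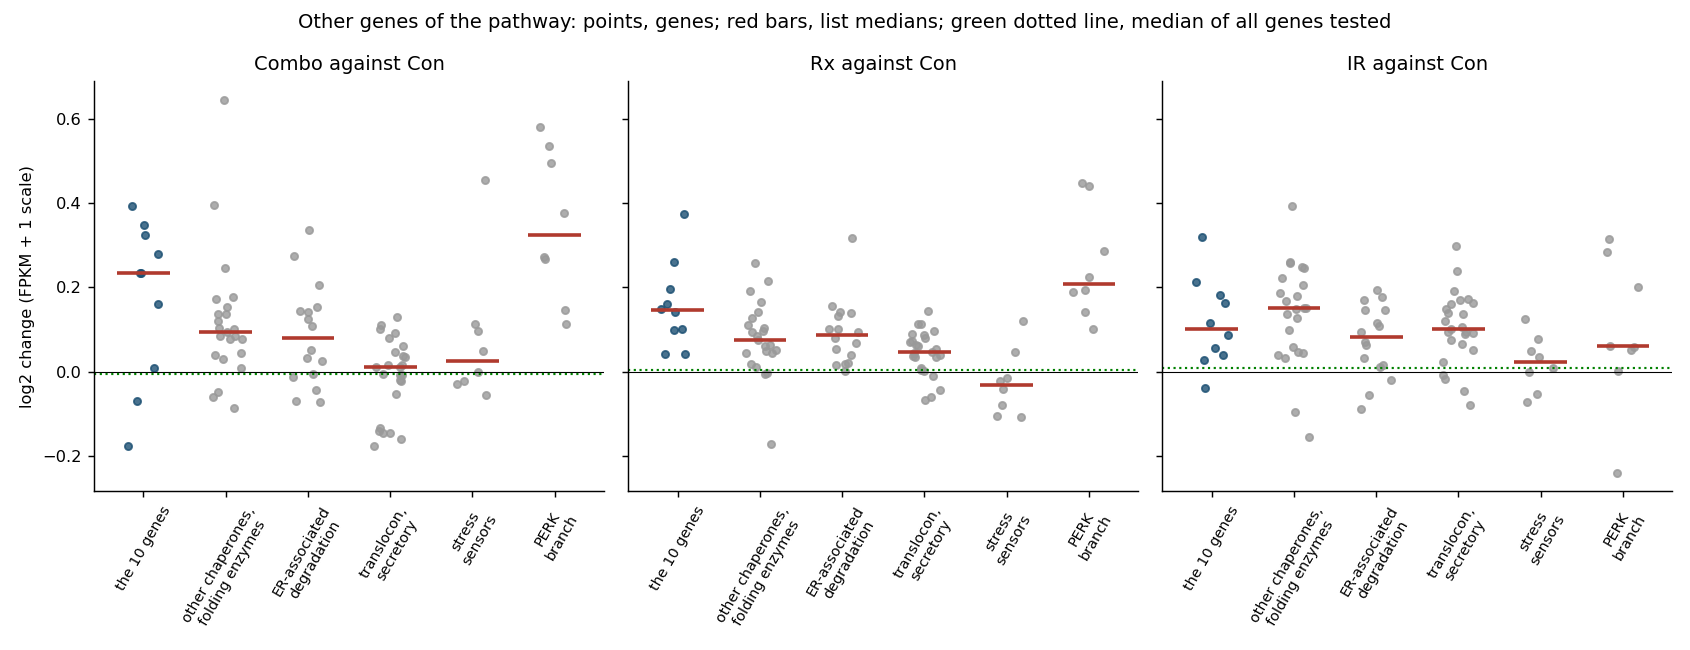
Log2 change (y axis, log2(FPKM + 1) scale) of each tested gene in the list of 10 and in 5 other lists of the pathway, in the comparisons of Combo, Rx and IR against Con, with list medians as red bars and the median of all tested genes as a dotted line. In Combo the medians run from 0.01 for translocon genes to 0.32 for PERK branch genes, with 0.23 for the 10 genes.

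By Pearson correlation over the 12 libraries, the tested genes outside the 10 most like their mean z-score were PI4K2A (0.94), GLA (0.91), TVP23B (0.90), PRNP (0.88) and SMIM13 (0.88). They encode a phosphatidylinositol kinase of Golgi and endosomes, a lysosomal galactosidase, a Golgi membrane protein, the prion protein and a small membrane protein, and none is in the 5 pathway lists. PI4K2A ranged from 5.67 FPKM in Con 2 to 8.58 in Rx 2, and PRNP from 101 in Con 1 to 138 in Rx 2. They are the highest values among all tested genes other than the 10, so such correlations describe these libraries only.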

How the data were processed

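Per the labels, RNA was isolated with Trizol and column kits, built into NEBNext Ultra libraries and read on a NovaSeq6000. Coordinates are in hg38, per the submitters' processing notes. For the aligner, the counting tool and the strand setting, a name is not given in the sources used here. Values are FPKM, which the authors deposited per gene and library with gene lengths. Multiplied by length, all values above 0 (100%) were whole multiples of a library's step to within 0.01 reads, and the reads so recovered gave the depths and the voom input. A gene of 1 kb at 1 FPKM had 13.3 to 19.1 reads. Replicates differed beyond sampling noise (chi-square per degree of freedom 7.09 to 39.9).

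Genes averaging 1 FPKM or more (13038) were taken as log2(FPKM + 1) and fitted by group over all 12 libraries with limma 3.58.1 in R 4.3.3 (variance trend, two-sided moderated tests, Benjamini-Hochberg over all of them, threshold 0.05), in 8 comparisons. The fit was tested on simulated data, with changes larger than those fitted for the 10 genes and no structure between replicates. That test therefore does not cover changes of the size seen here. Replicate numbers came from the labels. Deviations of same-numbered libraries correlated by 0.16 to 0.35 between IR and Con and by 0.19 to 0.28 between Rx and Con, over 0.1 in every pair. These libraries may therefore be paired, but the values reported come from the fit without pairs. A fit with the number as a block was an alternative. With the block, the lowest adjusted p of a member (limma) was 0.470 for IR over Con and 0.892 for Rx over Con. For Combo over Con it was 0.110, with 90 genes called. Members, lists and comparisons were chosen with earlier results of these data known. All 10 members were named, with 23 pathway genes chosen by name and the 5 genes outside the members most like the members' mean z-score. Promoter windows came from RefSeq (GRCh38.p14), and a match is letters only. The closing section gives the alternatives tried.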

Additional observations from a re-analysis of the deposited data

How the results depend on the processing

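No member passed the threshold in any comparison on the full set of libraries, and of 1730 alternative values of single members over 22 alternatives, 1678 kept their sign and their side of the threshold, 50 took the opposite sign and 2 passed. None of the 50 had an unadjusted p under 0.05 in the values reported. Combo against Con kept a positive median in every alternative tried. The fewest reads behind a member in any library were 186 for DNAJB9 and 196 for SDF2L1.

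Rescaling to TPM moved the median of all tested genes in the interaction to 0.17 (over the 17393 genes that average at least 1 TPM), against -0.025 in FPKM. The members' median in TPM was -0.0078 for IR over Con, 0.062 for Rx over Con, 0.20 for Combo over IR, 0.14 for Combo over Rx and 0.078 for the interaction. Over the 17393 genes the median in TPM was 0.097 for Combo over IR and 0.078 for Combo over Rx. Signs turned in TPM for PDIA4 (-0.023), DNAJC3 (-0.075), SEL1L (-0.066) and CRELD2 (-0.044) between IR and Con, and for PDIA4 (-0.049) and CRELD2 (-0.041) between Rx and Con. They also turned for PDIA4 (0.028) between Combo and IR, for XBP1 (0.060), HSPA5 (0.087) and PDIA4 (0.054) between Combo and Rx, and for HSPA5 (0.080), HERPUD1 (0.16) and PDIA4 (0.076) in the interaction. TPM gave 3 called genes between Combo and Con, and 1 for each of Combo over IR, Combo over Rx, the interaction, the QTP average and the radiation average. Voom turned HSPA5 between Combo and Rx (0.00088) and called 33 genes in the QTP average.

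With no filter on low values, 5 genes were called for each of IR over Con, Combo over Con and the radiation average, 6 for each of Combo over IR, the interaction and the QTP average, 4 for Combo over Rx and 1 for Rx over Con. The QTP average gave 24 with a mean of at least 5 FPKM, 0 without a variance trend and 0 without IR 3 and Combo 3. Without those 2 libraries, signs turned for HYOU1 between IR and Con (0.015), DNAJB9 (-0.016) and PDIA4 (0.0039) between Combo and IR, HSPA5 (0.013) and PDIA4 (0.028) between Combo and Rx, and SDF2L1 (0.035) and PDIA4 (0.023) in the QTP average. The cause of these moves was not tested.

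Same-numbered libraries of different groups correlated by -0.21 to 0.35 (median 0.18, 11 of 18 pairs over 0.1), and 11 of 12 libraries correlated best with their own number. Each pair of groups other than IR with Con and Rx with Con had a value at or under 0.1. The main fit took the numbers as pairs in no comparison. With the replicate number as a block, 90 genes were called between Combo and Con, 3 in the radiation average and 12 in the QTP average, and 0 members in any comparison. The block changed no call between IR and Con or between Rx and Con.

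Leaving out 1 library at a time gave, of 13038 tested genes, 0 to 3 called for IR over Con and 0 to 956 for Combo over IR. The latter included 0 to 2 members. The counts were 0 to 3 for the interaction, 0 to 18 for the QTP average and 0 to 1 for the radiation average. Members' medians ran from 0.085 (without IR 3) to 0.17 (IR 1) for IR over Con, 0.056 (IR 1) to 0.16 (Combo 1) for Combo over IR, -0.0022 (Rx 3) to 0.083 (Rx 2) for Combo over Rx, 0.086 (Rx 2) to 0.17 (Combo 1) for the QTP average and -0.16 (IR 1) to -0.053 (Rx 2) for the interaction. Values spanned 0 between IR and Con for HYOU1 (-0.072 to 0.015), DNAJC3 (-0.049 to 0.080), SEL1L (-0.080 to 0.13) and CRELD2 (-0.011 to 0.16), and between Rx and Con for SEL1L (-0.020 to 0.19) and CRELD2 (-0.026 to 0.080). So did SDF2L1 (-0.17 to 0.0059) and PDIA4 (-0.051 to 0.070) between Combo and Con, HSPA5 (-0.011 to 0.082) between Combo and IR, and XBP1 (-0.085 to 0.050), HSPA5 (-0.028 to 0.043) and PDIA4 (-0.093 to 0.028) between Combo and Rx. In the interaction HERPUD1 ran from -0.14 to 0.063. SDF2L1 ran from -0.11 to 0.011 in the QTP average and from -0.081 to 0.039 in the radiation average, and PDIA4 from -0.048 to 0.013 in the QTP average and from -0.0031 to 0.057 in the radiation average.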
